A study of Mus musculus with 13 samples.

Results

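F-box proteins are the substrate-binding subunits of SCF ubiquitin ligases, and 77 of the 54232 genes in the counts table encode them by symbol. The 77 are the genes whose symbol is Fbxl, Fbxo or Fbxw followed by a number, leaving out Fbxo5 and Fbxo43. The rule used symbols and no measured value. It took 19 Fbxl genes, 34 Fbxo genes, 9 Fbxw genes scattered over the genome and 15 Fbxw genes that lie side by side on chromosome 9. One of the 19, Fbxl12os, is listed by RefSeq as a transcribed pseudogene and entered through its symbol. Of the 77 genes, 70 had enough counts to be tested, and 7 did not (Fbxl15, Fbxl16, Fbxo2, Fbxo6, Fbxo24, Fbxo27 and Fbxo44). The mean of these 7 was at most 0.156 CPM (counts as a share of the library total, on the usual CPM scale, adjusted between libraries with TMM factors) in any group, where 3 counts correspond to 0.0671 to 0.105 CPM.

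In an SCF ligase the cullin Cul1 is the scaffold, the RING protein Rbx1 recruits the ubiquitin-charged E2 enzyme, and the adaptor Skp1 holds the F-box of an exchangeable F-box protein, which selects the substrate. Fbxl proteins carry leucine-rich repeats, Fbxw proteins carry WD40 repeats, and Fbxo proteins carry other domains or none that is recognised. Ubiquitin-mediated proteolysis drives the meiotic cell cycle of oocytes, and rodents carry an expanded group of Fbxw genes that is known for transcripts in oocytes.

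The libraries came from pools of 25 mouse oocytes, labelled as strain C57BL6/J. GV oocytes are fully grown and still arrested in prophase of meiosis I, with the germinal vesicle intact. They were taken from superovulated females and held in 0.2 mM IBMX, an inhibitor of meiotic resumption. MII eggs, arrested at metaphase II, were taken 12 to 14 h after hCG. Sirena1 Null females lack a long noncoding RNA because Cas9 was used to delete its promoter in C57Bl/6 zygotes. The line was bred for generations to C57BL/6NCrl mice, and heterozygotes then gave the homozygous animals. WT and Null libraries number 3 and 3 at the GV stage and 3 and 4 at the MII stage. The labels do not say that the pools came from separate females, so p-values measure the spread between these samples, which may be in part technical.

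Sirena1, listed as C86187, stood at 2909 to 3089 CPM in GV WT and 4269 to 4691 CPM in MII WT libraries, and at 23.2 to 26.4 and 35.9 to 45.0 CPM in Null. Total counts were 30867614 to 41285507 per library. All 12 oocyte markers on the list (such as Gdf9, Bmp15 and Zp3) were above 3 counts in each library, with a sum of 11010.1 to 16044 CPM. A list of 21 cumulus and granulosa cell markers summed to 104 to 139 CPM in GV WT, 115 to 123 CPM in MII WT and 112 to 147 CPM in MII Null libraries. GV Null replicates 1, 2 and 3 had 109, 618 and 264 CPM, so replicates 2 and 3 stood above all other libraries. Outside replicates 2 and 3 of GV Null, most of the sum came from Nr5a2, Cyp19a1 and Runx2. Their means were 54.8, 27.7 and 14.4 CPM in GV WT and 60.5, 36.5 and 15.6 CPM in MII WT libraries. The sum there can therefore not be read as an amount of cumulus cell RNA. In MII libraries 9 to 11 of the 21 were at 0 counts (Inha, Foxl2, Amh and Inhbb among them in all 3 WT libraries), except MII Null replicate 4 with 4 at 0. A list of 7 blood markers summed to 1.39 to 12.0 CPM over all libraries. Replicate 4 of MII Null lay between the stages on the leading principal component of all genes (25.7, against 65.8 to 81.4 for the other 3).

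The 15 Fbxw genes on chromosome 9 lie between positions 109139454 and 109790660 (GRCm38.p6), all on the minus strand, with gaps of 9413 to 38741 bp. In order they are Fbxw21, Fbxw13, Fbxw20, Fbxw14, Fbxw28, Fbxw22, Fbxw16, Fbxw19, Fbxw23, Fbxw15, Fbxw24, Fbxw25, Fbxw18, Fbxw26 and Fbxw27. Fbxw27 overlaps the gene model Gm40579, and the others overlap no RefSeq gene. The 15 are close paralogs, and no source used here states how reads that fit several of them were counted. The split of counts among them is therefore uncertain.

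RefSeq promoter windows of GRCm38.p6 (250 bases before to 50 after the start) were at hand for 58 members, 12 of them in the chromosome 9 group. Of these 12 windows, 11 were 84.9 to 97.7% identical to one another over at least 254 aligned bases (55 pairs). The window of Fbxw23 was unlike the others and aligned to another of them over at most 32 bases. The following stretches run from 190 to 61 bases before the start, 5′ to 3′ on the minus strand. They are shown for 3 genes that fell most at maturation (Fbxw21, Fbxw16 and Fbxw19), for 3 of the 4 that changed least in the group (Fbxw14, Fbxw28 and Fbxw20) and for Fbxw23. Capitals mark CAGCTG, a form of the E-box CANNTG that basic helix-loop-helix factors such as the oocyte factor FIGLA can bind.
Fbxw21: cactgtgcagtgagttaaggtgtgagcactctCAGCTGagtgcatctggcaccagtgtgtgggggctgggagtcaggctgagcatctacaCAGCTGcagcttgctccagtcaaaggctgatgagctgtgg
Fbxw16: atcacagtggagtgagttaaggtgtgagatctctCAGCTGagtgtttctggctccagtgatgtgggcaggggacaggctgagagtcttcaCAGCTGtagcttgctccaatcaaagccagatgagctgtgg
Fbxw19: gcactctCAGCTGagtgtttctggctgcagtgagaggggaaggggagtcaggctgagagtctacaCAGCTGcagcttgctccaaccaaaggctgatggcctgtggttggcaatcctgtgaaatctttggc
Fbxw14: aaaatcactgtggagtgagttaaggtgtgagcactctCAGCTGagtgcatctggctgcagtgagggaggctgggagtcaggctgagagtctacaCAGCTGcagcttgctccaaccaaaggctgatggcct
Fbxw28: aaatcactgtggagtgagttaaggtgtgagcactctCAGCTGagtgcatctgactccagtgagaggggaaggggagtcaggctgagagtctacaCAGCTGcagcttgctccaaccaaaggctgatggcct
Fbxw20: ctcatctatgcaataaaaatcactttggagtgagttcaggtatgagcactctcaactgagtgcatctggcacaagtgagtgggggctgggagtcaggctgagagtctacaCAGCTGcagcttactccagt
Fbxw23: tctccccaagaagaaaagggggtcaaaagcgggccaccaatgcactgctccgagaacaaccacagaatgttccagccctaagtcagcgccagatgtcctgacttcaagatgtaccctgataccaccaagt
The stretches lie at Fbxw21 chr9:109162083-109162212, Fbxw16 chr9:109449201-109449330, Fbxw19 chr9:109495915-109496044, Fbxw14 chr9:109287737-109287866, Fbxw28 chr9:109339720-109339849, Fbxw20 chr9:109234815-109234944 and Fbxw23 chr9:109543250-109543379. CAGCTG, which reads the same on both strands, was found at least once in 11 of the 12 windows and at least 2 times in 10. The 10 pairs of matches were 56 to 58 bases apart. Fbxw20 had 1 match and Fbxw23 had none. Over all 32851 windows of this length in the table, 16.3% held 1 match or more and 1.9% held 2 or more. Among the 46 other F-box genes with windows, 10 had a match in any of their windows and 2 had a window with at least 2. These are counts of genes, which can have several windows, whereas each of the 12 chromosome 9 genes had 1 window. Of 3 other motifs searched on both strands, CANNTG, which includes CAGCTG, was in 12 of 12 windows (72.3% of all), and TATAAA and TAATTG were in 0 of 12 (13.6% and 8.0% of all). The motifs were chosen with the sequences at hand, and the windows are near copies of one another, so the counts are a description. Of the genes shown, Fbxw21, Fbxw16, Fbxw19, Fbxw14 and Fbxw28 had a pair of matches each. A part of the matches in the levels or their changes was not tested.

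Maturation was the comparison in which F-box genes changed. GV oocytes were held in IBMX and MII eggs were taken after hCG, so stage cannot be told apart from these treatments. From GV to MII in WT, 36 of the 70 tested members passed an adjusted p of 0.05 (edgeR quasi-likelihood test, Benjamini-Hochberg over all 20143 tested genes), where 42.7% of all tested genes did. Of these, 14 rose (19.9% of all genes rose) and 22 fell (22.8% of all genes fell). In Null 40 members passed, 14 rising and 26 falling, against 49.0% of all genes, 22.1% higher and 26.9% lower. The 2 comparisons use different libraries. They called 33 members in the same direction, which is 91.7% of the WT calls and 82.5% of the Null calls, and none in opposite directions. For all genes the shares were 86.7% and 75.7%. The members' share was thus near that of all genes. Libraries of the stages did not overlap for 17 higher and 28 lower members in WT (28.2% and 30.0% of all genes) and for 12 and 27 in Null (21.3% and 25.1%). Each called member is named in the accounts of the groups, so members not named there passed in neither genotype.

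Levels are shares of the poly(A) RNA sequenced in a library. The spike-in added by the submitters was not used here, so total mRNA per egg was not measured. A rise or fall is one in captured poly(A) RNA, and the length of poly(A) tails was not measured. Scaling by library totals without TMM factors moved the median log2 change of all genes from 0.01 to -0.20 in WT and from -0.05 to -0.28 in Null. With it 38.4% of all genes were called in WT and 46.1% in Null, and of those calls 23.7% and 21.4% were higher. The members split into 7 higher and 30 lower in WT and 6 and 32 in Null. All 22 and 26 falls remained under that scaling, and 7 and 6 of the 14 rises did. A fit without GV Null replicates 2 and 3 sets 1 GV Null library against 4 MII Null libraries and assumes that the lone library varies like the other groups. It called 6 members higher and 22 lower in Null and 26.1% of all genes. In bulk pools, fewer transcripts per cell and fewer contributing cells cannot be told apart.

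The Fbxw genes of chromosome 9 were 13 of the 22 members that fell in WT and 14 of the 26 in Null, and with library totals 14 of 30 and 15 of 32. In WT 13 of the 15 fell, 2 did not pass and none rose, with a median log2 change of -0.74 (all tested genes 0.01). In Null 14 fell and 1 did not pass, with a median of -0.83 (all genes -0.05). Among the other 55 tested members 9 fell and 14 rose in WT, and 12 fell and 14 rose in Null, with medians of 0.02 and 0.09. Over all tested genes 22.8% fell and 19.9% rose in WT, and 26.9% fell and 22.1% rose in Null. The chromosome 9 counts ran from 12 to 13 falls in WT and from 13 to 15 in Null when each library was left out in turn. The fit with 1 GV Null library called 14 of them lower. Requiring a change of at least 1.5-fold left 6 and 8 of these genes called, and 13.4% and 16.0% of all genes.

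The 15 genes together made up 0.714 ± 0.0173% of all counts in GV WT libraries (SD, n = 3) and 0.416 ± 0.0384% in MII WT libraries (n = 3). In Null they made up 0.707 ± 0.0450% (n = 3) and 0.376 ± 0.0403% (n = 4). Summed over the group, the level was 6438, 6569 and 6883 CPM in GV WT and 4794, 4512 and 4007 CPM in MII WT. In Null it was 6586, 5948 and 6928 CPM in GV oocytes and 4392, 3715, 3734 and 4262 CPM in eggs. No egg library reached the lowest GV library in either genotype. The MII level was 0.669 of the GV level in WT and 0.621 in Null.

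**Figure D1:**
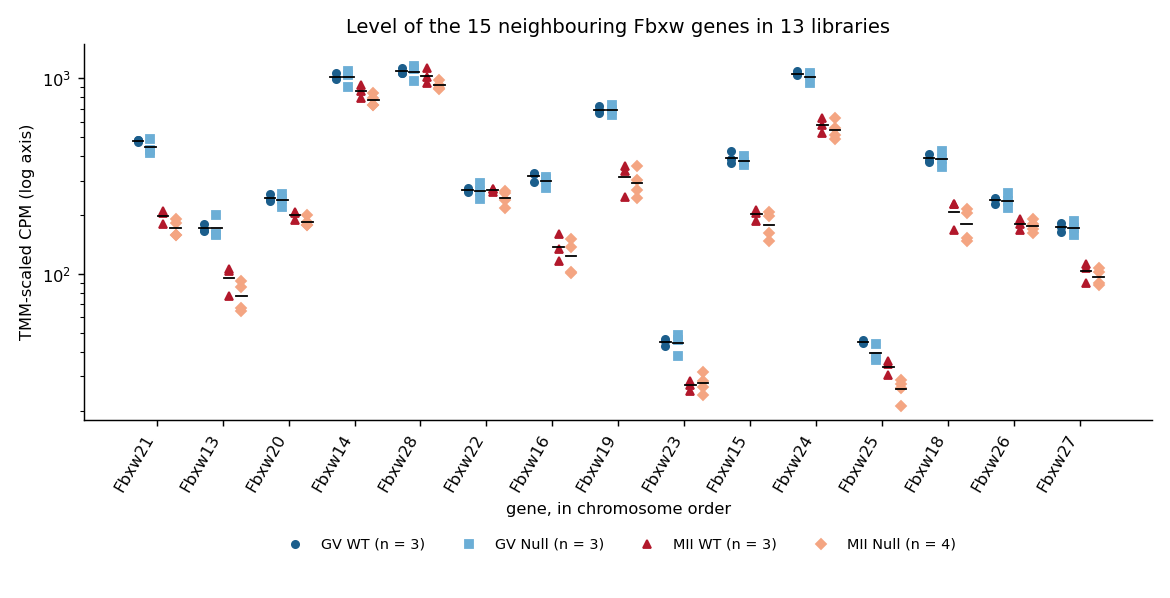
TMM-scaled CPM (log axis) of the 15 Fbxw genes of chromosome 9 in chromosome order, with 1 point per library (GV WT, GV Null and MII WT n = 3, MII Null n = 4) and the group mean as a bar. MII points lie below GV points for most genes, least so for Fbxw28 and Fbxw22, and WT and Null points of a stage mostly overlap.

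Fbxw21, at 1 end of the row, fell most of the 15. It stood at 471, 486 and 485 CPM in GV WT and at 205, 209 and 179.9 CPM in MII WT libraries. In Null it stood at 432, 417 and 489 CPM in GV oocytes and at 182, 159, 159 and 191 CPM in eggs. All egg libraries lay far below all GV libraries. The log2 change was -1.28 in WT (95% interval -1.46 to -1.09, adjusted p = 2.94e-09) and -1.37 in Null (-1.54 to -1.20, adjusted p = 3.14e-10).

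Fbxw16 and Fbxw19, which lie next to each other in the middle of the row, fell nearly as much. Fbxw16 stood at 296, 324 and 329 CPM in GV WT and at 161, 135 and 117 CPM in MII WT libraries, a log2 change of -1.20 (-1.52 to -0.88, adjusted p = 1.30e-05). Fbxw19 stood at 662, 693 and 719.8 CPM in GV WT and at 357, 336 and 248 CPM in MII WT libraries, a log2 change of -1.14 (-1.43 to -0.86, adjusted p = 5.60e-06). For both genes replicate 3 was the lowest MII WT library, and no library of 1 stage reached those of the other. In Null the changes were -1.28 (adjusted p = 2.54e-06) and -1.24 (adjusted p = 8.18e-07).

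Fbxw15, Fbxw18, Fbxw24 and Fbxw13 fell to about the same extent. Fbxw15 went from 394 ± 28.8 to 202 ± 13.4 CPM in WT (log2 -0.96, adjusted p = 1.18e-06; n = 3 per stage). Fbxw18 went from 391 ± 19.6 to 208 ± 35.1 CPM (log2 -0.91, adjusted p = 0.000193). Fbxw24 went from 1059.6 ± 24.1 to 580.0 ± 51.0 CPM (log2 -0.87, adjusted p = 3.57e-07). Fbxw13, the neighbour of Fbxw21, went from 171 ± 7.75 to 95.9 ± 15.8 CPM (log2 -0.84, adjusted p = 0.000315). None of these 4 genes had overlapping stages. In Null the same genes fell by 1.08, 1.11, 0.89 and 1.16 on the log2 scale.

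Fbxw27, Fbxw23, Fbxw25 and Fbxw26 fell less. Their log2 changes in WT were -0.74 for Fbxw27 (adjusted p = 7.08e-06), -0.73 for Fbxw23 (adjusted p = 3.00e-05), -0.42 for Fbxw25 (adjusted p = 0.00498) and -0.41 for Fbxw26 (adjusted p = 0.000543). In Null they were -0.83, -0.68, -0.60 and -0.43, all past the threshold. Fbxw23, whose promoter window is unlike the rest, thus lay at the middle of the group. It stood at 42.7, 45.4 and 46.5 CPM in GV WT and at 28.5, 25.3 and 27.2 CPM in MII WT libraries, without overlap.

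**Figure D2:**
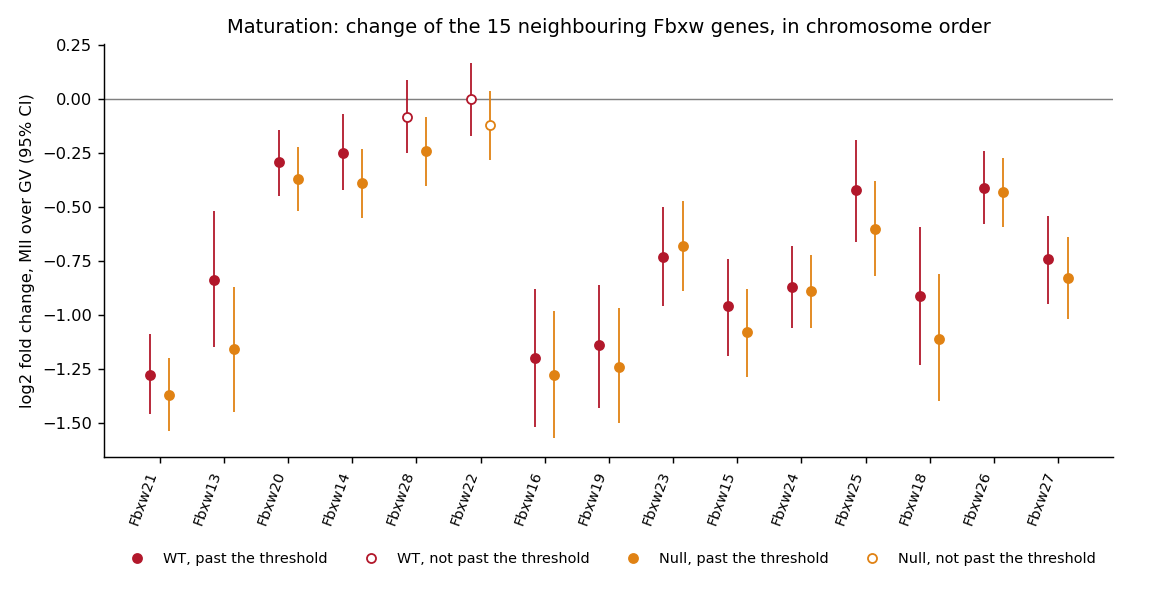
Log2 fold change from GV to MII of the 15 Fbxw genes of chromosome 9 in WT (red) and Null (orange), in chromosome order. Bars are 95% intervals, and filled points passed an adjusted p of 0.05. The 4 neighbours Fbxw20, Fbxw14, Fbxw28 and Fbxw22 lie between -0.39 and 0.00, and Fbxw21 lies lowest at -1.28 and -1.37.

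The 4 genes that changed least, Fbxw20, Fbxw14, Fbxw28 and Fbxw22, are direct neighbours. Fbxw28 stood at 1071, 1071 and 1126 CPM in GV WT and at 1126, 1019 and 943 CPM in MII WT libraries, and the stages overlapped. Its log2 change was -0.08 in WT (-0.25 to 0.09, adjusted p = 0.446), and -0.28 (adjusted p = 0.00649) with library totals. In Null it fell from 1083 ± 101 (n = 3) to 920.2 ± 44.3 CPM (n = 4; log2 -0.24, adjusted p = 0.0152), but the libraries overlapped and the call was lost without GV Null replicate 3 (adjusted p = 0.0956).

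Fbxw22 stood at 262, 268 and 276 CPM in GV WT and at 273, 273 and 262 CPM in MII WT libraries. Its log2 change of 0.00 (-0.17 to 0.17) in WT was the smallest of the 15, and in Null it was -0.12 (-0.28 to 0.04), neither past the threshold. With library totals in place of TMM factors its Null change was -0.34 (adjusted p = 0.00129), and it also passed without MII Null replicate 1 (-0.19, adjusted p = 0.0414). Fbxw14 fell from 1019.7 ± 37.2 to 859 ± 65.2 CPM in WT (log2 -0.25, adjusted p = 0.0224), and the stages did not overlap. The change was -0.22 without GV WT replicate 3 (adjusted p = 0.0948), -0.25 without MII WT replicate 2 (adjusted p = 0.0577) and -0.19 without MII WT replicate 3 (adjusted p = 0.126). In Null Fbxw14 fell by 0.39 on the log2 scale (adjusted p = 0.000423), also without overlap. In WT Fbxw20 fell from 241, 237 and 258 to 207, 204 and 189 CPM (log2 -0.29, adjusted p = 0.00421). In Null it changed by -0.37 (adjusted p = 0.000286). Over all runs the change of Fbxw14 was -0.45 to -0.19 in WT and -0.61 to -0.33 in Null. That of Fbxw20 was -0.49 to -0.25 in WT and -0.60 to -0.31 in Null.

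The make-up of the group therefore shifted. These 4 genes held 39.9, 39.2 and 39.6% of the group's counts in GV WT libraries and 52.7, 52.4 and 54.5% in MII WT libraries. In Null the shares were 40.7, 39.3 and 40.3% in GV oocytes and 52.0, 54.1, 54.9 and 50.7% in eggs. The ratio of Fbxw28 to Fbxw21 counts went from 2.27 ± 0.0598 in GV WT to 5.2 ± 0.308 in MII WT, and from 2.43 ± 0.150 to 5.35 ± 0.334 in Null. Both measures are ratios within a library and do not depend on the scaling between libraries, and the stages did not overlap. The 4 genes were picked after their values were seen, so no test is given.

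**Figure D3:**
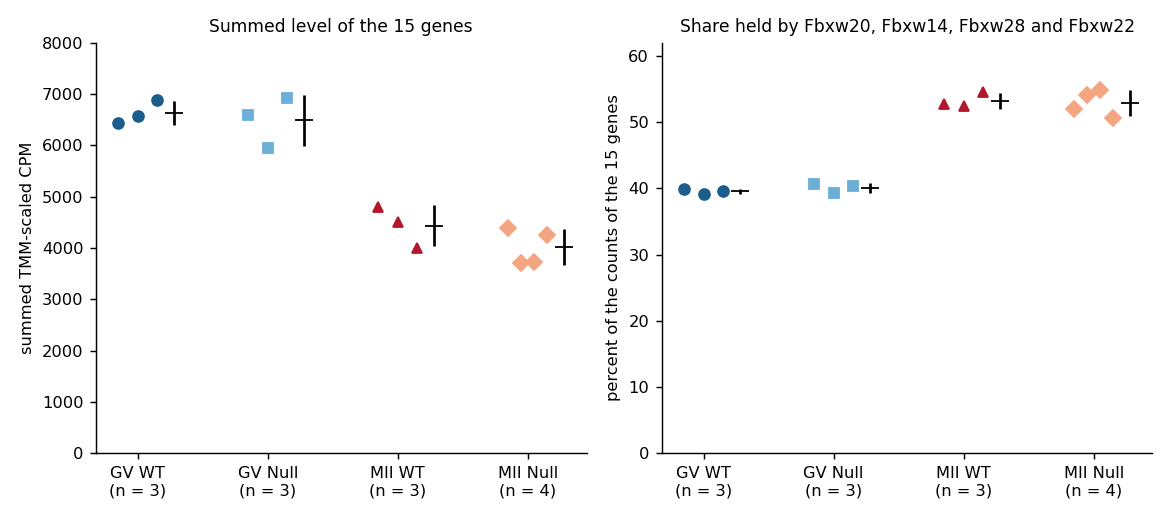
Left, summed TMM-scaled CPM of the 15 Fbxw genes of chromosome 9 in each library. Right, the percent of their counts held by Fbxw20, Fbxw14, Fbxw28 and Fbxw22. Points are libraries and black marks are the mean ± SD. The sum is lower in eggs of both genotypes, and the share of the 4 genes is 39.2 to 40.7% in GV and 50.7 to 54.9% in MII libraries.

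Of the 9 Fbxw genes outside this group, 3 fell and 1 rose in WT, and 3 fell and none rose in Null. Of all tested genes 22.8% fell and 19.9% rose in WT, and 26.9% fell and 22.1% rose in Null. Fbxw9 fell most of all tested members in WT. It stood at 3.20, 2.05 and 4.39 CPM in GV WT and at 1.06, 0.586 and 0.476 CPM in MII WT libraries (log2 -2.18, 95% interval -2.89 to -1.47, adjusted p = 4.19e-05). In Null it went from 3.04, 4.08 and 3.40 CPM to 0.498, 0.490, 0.318 and 0.683 CPM (log2 -2.81, adjusted p = 8.58e-07). The stages did not overlap, although Fbxw9 overlaps A230103J11Rik and reads of the 2 may not be separable.

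Fbxw2 fell in both genotypes (log2 -0.71 in WT and -0.76 in Null), Fbxw10 in WT (-0.68) and Fbxw17 in Null (-0.52). Fbxw5 rose in WT, from 8.71 ± 1.03 to 12.1 ± 1.21 CPM (log2 0.47, adjusted p = 0.0115), a call lost with library totals (0.27, adjusted p = 0.144) and without GV WT replicate 1 or MII WT replicate 2. The well-studied members did not pass. Fbxw7, which binds cyclin E and Myc, changed by 0.16 in WT (-0.14 to 0.45), and Fbxw11, the beta-TrCP paralog that binds beta-catenin and IkB, by -0.05 (-0.22 to 0.12).

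Among 17 tested Fbxl genes, 4 rose and 3 fell in WT, and 4 rose and 5 fell in Null. Of all tested genes 19.9% rose and 22.8% fell in WT, and 22.1% rose and 26.9% fell in Null. Fbxl7, whose protein targets Aurora A, rose from 33.7, 32.7 and 30.5 to 52.2, 54.3 and 53.5 CPM in WT. The stages were far apart (log2 0.72, 95% interval 0.52 to 0.92, adjusted p = 7.91e-06), and the rise kept its call with library totals. In Null it rose by 0.48 (adjusted p = 0.000255). Fbxl7 overlaps Gm52206, Gm52205, Gm6330, Gm18684 and Gm18093, and reads of these may not be separable from its own. The other Fbxl genes that rose in both genotypes were Fbxl20 (0.40 and 0.50), Fbxl2 (0.45 and 0.30) and Fbxl5 (0.31 and 0.25), the iron-sensing F-box protein. Fbxl2 overlaps Ubp1 and Gm36035, with the same limit. With library totals the rise of Fbxl5 was lost in both genotypes and that of Fbxl2 in Null, and without GV Null replicate 2 that of Fbxl5 in Null was 0.22 (adjusted p = 0.0528). In the fit with 1 GV Null library it was 0.11 (adjusted p = 0.469).

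Fbxl14, which targets the Snail transcription factors, fell. It stood at 97.1, 95.9 and 102 CPM in GV WT and at 53.3, 53.1 and 60.1 CPM in MII WT libraries (log2 -0.83, -0.99 to -0.66, adjusted p = 1.49e-07), with no overlap. In Null it fell by 0.63 on the log2 scale (adjusted p = 1.41e-06). Fbxl18 fell in both (-0.71 and -0.83), as did Fbxl22 (-1.34 and -1.62), a gene of 1.35 CPM in GV WT oocytes that lies within the span of Herc1. Fbxl13 (-0.54) and Fbxl17 (-0.31) fell in Null, where their WT changes of -0.48 and -0.27 missed the threshold (adjusted p = 0.0596 and 0.0507).

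Among 29 tested Fbxo genes, 9 rose and 3 fell in WT, and 10 rose and 4 fell in Null. Of all tested genes 19.9% rose and 22.8% fell in WT, and 22.1% rose and 26.9% fell in Null. Fbxo15, known as a target gene of Oct4 in embryonic stem cells, rose from 6.82, 7.31 and 7.60 to 14.1, 12.9 and 12.9 CPM in WT (log2 0.88, 0.56 to 1.19, adjusted p = 0.000119). In Null it rose from 6.75, 5.73 and 6.40 to 15.3, 10.5, 10.1 and 12.7 CPM (log2 0.95, adjusted p = 2.67e-05). The stages did not overlap in either genotype. Fbxo36 rose from 5.86, 5.33 and 7.40 to 12.8, 10.2 and 11.6 CPM in WT (log2 0.89, adjusted p = 0.000171) and by 0.79 in Null (adjusted p = 0.000261). Both kept their calls with library totals.

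Smaller rises were shared by both genotypes. In WT they were 0.42 for Fbxo8, 0.40 for Fbxo42, 0.37 for Fbxo21, 0.30 for Fbxo11 (known for binding BCL6) and 0.22 for Fbxo40, and in Null 0.41, 0.46, 0.39, 0.33 and 0.30. Of these 5 genes, Fbxo8 and Fbxo42 kept their calls with library totals and the others lost them in both genotypes. In the fit with 1 GV Null library the Null changes of Fbxo8, Fbxo11, Fbxo21 and Fbxo40 were 0.26, 0.23, 0.22 and 0.29, none past the threshold. Fbxo9 (0.31 and 0.33) and Fbxo10 (0.29 and 0.27) also passed in both genotypes and lost their calls with library totals. Fbxo9 missed the threshold in WT without GV WT replicate 1 (0.30) or 3 (0.27) or MII WT replicate 1 (0.35) or 2 (0.21), and in Null without GV Null replicate 2 (0.26), MII Null replicate 2 (0.28) or both GV Null libraries high in cumulus markers (0.34). Fbxo40 missed it in WT without any 1 library except MII WT replicate 1, at changes of 0.17 to 0.25. Fbxo25 passed in Null (0.34, adjusted p = 0.0337) and not in WT (0.09), and the test of that difference did not pass (adjusted p = 0.999). Its libraries overlapped. The Null change missed the threshold in 12 of 16 alternatives, among them a replicate block (0.32, adjusted p = 0.0736), library totals (0.12, adjusted p = 0.473) and leaving out GV Null replicate 2 or 3 or MII Null replicate 2, 3 or 4 (0.27 to 0.35).

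Fbxo7, a gene of hereditary parkinsonism, and Fbxo31, which binds cyclin D1, fell in both genotypes. Fbxo7 changed by -0.68 in WT and -0.53 in Null, and Fbxo31 by -0.69 and -0.67. Fbxo38 fell in WT (-0.25, adjusted p = 0.0379) and Fbxo16 in Null (-0.29, adjusted p = 0.0338). Fbxo28 stood at 368, 373 and 389 CPM in GV WT and at 374, 372 and 402 CPM in MII WT libraries and did not pass (log2 0.02, -0.16 to 0.20). Fbxo30 (0.01, -0.16 to 0.17) and Fbxo34 (0.09, -0.10 to 0.27) did not pass either. In WT the signs of Fbxo28 and Fbxo34 turned to -0.18 and -0.12 with library totals. In Null Fbxo34 changed by 0.20 (adjusted p = 0.0575). It passed as a rise in 6 of 16 alternatives, among them DESeq2 (0.21, adjusted p = 0.0431), and was -0.03 with library totals. Fbxo28 changed by 0.09 in Null. It passed in 1 alternative, without GV Null replicate 1 (0.23, adjusted p = 0.00651), and was -0.13 with library totals.

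Fbxo32, the muscle atrophy gene atrogin-1, varied widely between libraries of a group. It stood at 2.04, 1.45 and 1.22 CPM in GV WT and at 0.298, 1.86 and 0.762 CPM in MII WT libraries. In Null it stood at 1.37, 3.64 and 2.5 CPM in GV oocytes and at 0.184, 0.210, 0.191 and 0.528 CPM in eggs. The change was -0.70 in WT (-1.81 to 0.42, adjusted p = 0.305) and -3.16 in Null (-4.29 to -2.02, adjusted p = 0.000160). In WT it passed without MII WT replicate 2 (-1.56, adjusted p = 0.0271), and in the fit with 1 GV Null library the Null change was -2.29 (adjusted p = 0.0168).

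The 2 highest Fbxo32 libraries of all were GV Null replicates 2 and 3, which also had the highest sums of cumulus markers (618 and 264 CPM). Among the eggs the highest Fbxo32 level was in MII WT replicate 2, where the sum was 122 CPM against 123 and 115 CPM in the other MII WT libraries. Of the MII Null libraries, replicate 4 had the highest Fbxo32 level, 0.528 CPM against 0.184 to 0.210 CPM. Its marker sum of 147 CPM was the highest of all egg libraries. Most of the sum in eggs came from Nr5a2, Cyp19a1 and Runx2, so it cannot show small amounts of cumulus cell RNA there. Of the 21 markers, 11 were at 0 counts in MII WT replicate 2, and 9 and 11 in the other MII WT libraries. In MII Null replicate 4 the number at 0 was 4, against 9 to 10 in the other MII Null libraries. The part of cumulus cell RNA in the Fbxo32 values was not tested.

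**Figure D4:**
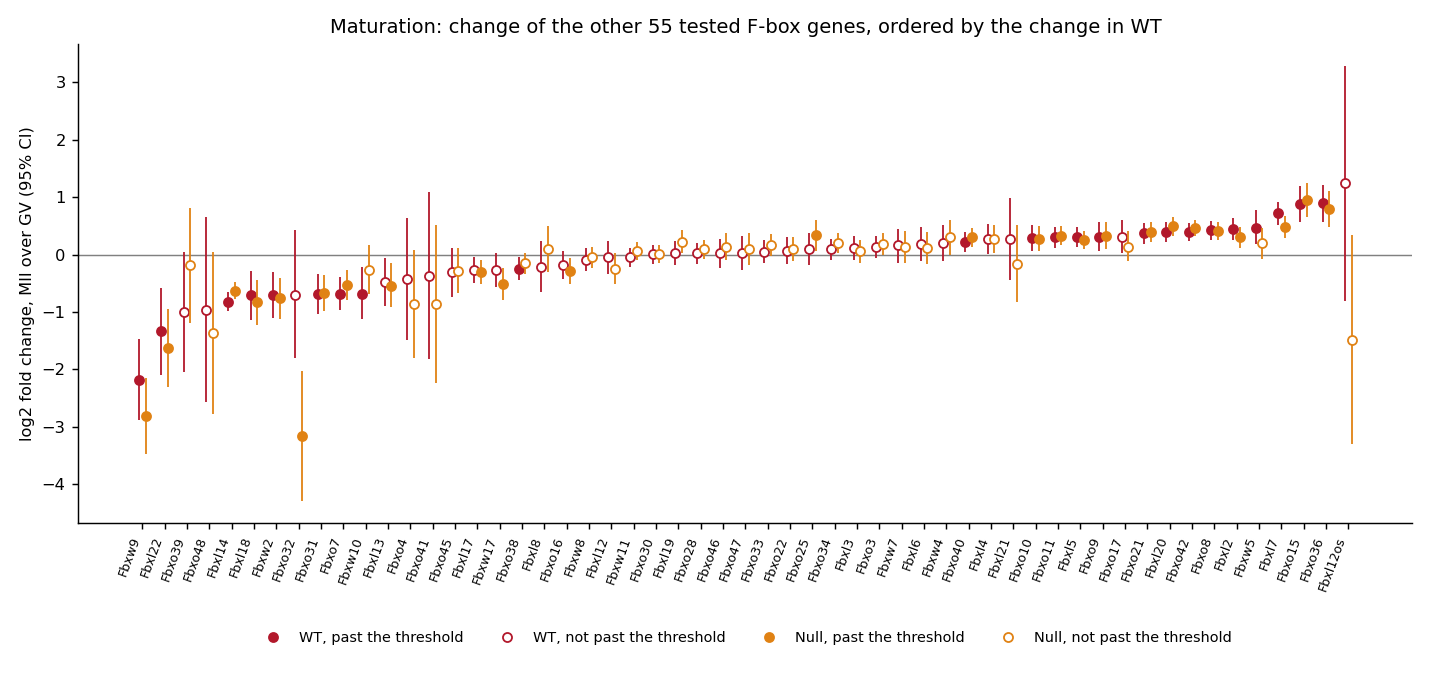
Log2 fold change from GV to MII in WT (red) and Null (orange) for the 55 tested F-box genes outside the chromosome 9 group, ordered by the WT change. Bars are 95% intervals, and filled points passed an adjusted p of 0.05. Fbxw9 lies lowest in WT (-2.18), Fbxo15 and Fbxo36 are the highest that passed (0.88 and 0.89), and Fbxo32 differs most in height between the genotypes among the genes that passed in either.

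The SCF core and its regulators were read from a list of 37 genes, all tested. In WT 14 rose and 9 fell, where 19.9% and 22.8% of all genes did, and in Null 14 rose and 11 fell, where 22.1% and 26.9% did. With library totals the counts were 5 and 14 in WT and 5 and 16 in Null. In the fit with 1 GV Null library they were 6 and 7 in Null, where 26.1% of all genes were called. Skp1a, which encodes the adaptor Skp1, fell from 1300.3, 1284 and 1401 to 804, 926 and 946 CPM in WT (log2 -0.58, -0.74 to -0.41, adjusted p = 1.13e-05). Rbx1 fell from 39.5, 35.9 and 42.4 to 19.5, 18.3 and 23.4 CPM (log2 -0.94, -1.18 to -0.71, adjusted p = 2.29e-06). Neither gene had overlapping stages, and in Null they fell by 0.49 and 1.01 on the log2 scale.

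The scaffold Cul1 did not fall with them. It stood at 950.1, 967 and 956 CPM in GV WT and at 1147, 1115 and 1037 CPM in MII WT libraries (log2 0.20, 0.02 to 0.37, adjusted p = 0.0635). In Null it rose by 0.32 (adjusted p = 0.00241), but the libraries overlapped and the rise was lost with library totals (0.09, adjusted p = 0.271). Nedd8, the ubiquitin-like protein that activates cullins, fell most of the list. It went from 48.5, 49.8 and 48.7 to 8.54, 8.58 and 10.8 CPM in WT (log2 -2.40, -2.65 to -2.15, adjusted p = 5.13e-11), and its Null change was -2.20.

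Rnf7, another RING subunit of cullin ligases, fell by 1.72 in WT and by 2.08 in Null on the log2 scale. The signalosome subunits Cops9 and Cops3, whose complex removes Nedd8 from cullins, changed by -1.67 and -0.73 in WT and by -1.58 and -0.97 in Null. The subunit Cops2 rose instead (0.35 and 0.29), and with library totals its rise was kept in WT (0.15, adjusted p = 0.0452) and lost in Null (0.06, adjusted p = 0.357). The E2 enzyme gene Ube2d2a rose in both genotypes (0.49 and 0.61) and with library totals too (0.29 and 0.38).

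Of 6 F-box genes known under other symbols, 5 were tested and 3 rose in both genotypes. Over all tested genes 19.9% rose in WT and 22.1% in Null. Skp2, which binds the Cdk inhibitor p27, rose by 0.50 in WT and 0.48 in Null, and the histone demethylase gene Kdm2b by 0.47 and 0.47. Both kept their calls with library totals. Kdm2a rose by 0.31 and 0.33, and with library totals that call was lost (0.11 and 0.10). Btrc (beta-TrCP1) and Ccnf (cyclin F) changed by -0.04 and 0.12 in WT and by 0.00 and 0.05 in Null, none past the threshold. With library totals Btrc passed, at -0.24 in WT (adjusted p = 0.0155) and -0.22 in Null (adjusted p = 0.0134). Ect2l was too low to test, at a mean of at most 0.0584 CPM.

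Loss of Sirena1 changed no F-box gene past the threshold. At the GV stage 0 of the 70 tested members passed (edgeR, adjusted p of 0.05), where 0.0546% of all genes did. At the MII stage 0 passed, against 0.0546% of all genes, and 0 passed in the test of whether the genotype effect differed between stages, against 0.00496%. DESeq2 also called none in the 3 comparisons. An unadjusted p under 0.05 was met by 2, 5 and 1 members, where 6.66%, 6.35% and 3.38% of all genes met it. The SCF list and the F-box genes under other symbols likewise had no call by genotype at either stage.

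For the chromosome 9 group the intervals were narrow. At the GV stage 14 of the 15 genes lay below 0, with a median of -0.01 and values from -0.20 to 0.02 (all tested genes 0.02). Of all 20143 tested genes, 9335 lay below 0. Taken over the 15 genes, the 95% intervals reached from -0.43 to 0.33. Only 5 lay below 0 when GV Null replicate 2 or GV WT replicate 3 was left out, and 7 did with library totals. At the MII stage 14 of the 15 lay below 0, with a median of -0.15 and values from -0.37 to 0.03 (all genes 0.01), and the intervals reached from -0.60 to 0.25. Of all 20143 tested genes, 9422 lay below 0 there.

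In eggs 4 of the 15 had an unadjusted p under 0.05 (Fbxw25, Fbxw21, Fbxw13 and Fbxw28), where 6.35% of all genes did, and none passed adjustment. The 15 are close paralogs with an uncertain split of counts, so they cannot be taken as independent results. From 12 to 15 genes stayed below 0 when each egg library was left out. The median was -0.09 without MII WT replicate 1 or MII Null replicate 3, -0.08 without MII Null replicate 2 and -0.22 without MII WT replicate 3. Without MII Null replicate 4 it was -0.15, as with all libraries. The summed level was 0.978 of WT in Null GV oocytes and 0.907 of WT in Null eggs, and libraries of the genotypes overlapped at both stages.

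Fbxw25 had the smallest p of all members in eggs. It stood at 34.5, 36.1 and 30.3 CPM in MII WT and at 28.8, 21.1, 27.5 and 26.3 CPM in MII Null libraries, so every Null library lay below every WT library. Of the 70 members it was the only one lower without overlap in eggs, and 3.13% of all genes were. The log2 difference was -0.37 (-0.60 to -0.15, adjusted p = 0.507). At the GV stage it stood at 45.2, 44.2 and 46.0 CPM in WT and at 37.6, 36.2 and 44.1 CPM in Null (log2 -0.20, -0.43 to 0.04, adjusted p = 0.804). The highest Null library was again below the lowest WT library, as it was for 6 members and 5.95% of all genes. The test was passed at neither stage.

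Fbxw21 came next within the group. In eggs it was 205, 209 and 179.9 CPM in WT against 182, 159, 159 and 191 CPM in Null, with overlap (log2 -0.20, -0.37 to -0.03, adjusted p = 0.754). For its GV libraries the difference was -0.11 (-0.29 to 0.08). Fbxo32 had the smallest p outside the group in eggs, at -1.79 (adjusted p = 0.605), and in the difference between stages, at -2.46 (-4.06 to -0.86, adjusted p = 0.999). Its counts were 9, 54 and 24 in MII WT and 7, 6, 6 and 17 in MII Null libraries. A fit without the filter on low counts called Fbxo32 in eggs (-1.78, adjusted p = 0.00106) and in the difference (-2.44, adjusted p = 0.00131). That fit called 0.732% and 0.397% of all genes in these comparisons, against 0.0546% and 0.00496% with the filter. Without MII WT replicate 2 the egg difference was -0.93 (adjusted p = 0.945), and in the fit with 1 GV Null library the difference between stages was -1.59 (adjusted p = 1.00).

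At the GV stage the smallest p-values belonged to Fbxo25, Fbxl14 and Fbxl12os. Fbxo25 stood at 9.80, 9.62 and 10.9 CPM in WT and at 8.61, 8.37 and 7.74 CPM in Null libraries, without overlap (log2 -0.29, adjusted p = 0.734). Fbxl14 was 97.1, 95.9 and 102 CPM in WT and 94.7, 84.8 and 83.0 CPM in Null, also without overlap (log2 -0.17). Fbxl12os had a mean of 0.0706 CPM in WT and 0.246 CPM in Null, near the detection limit, and its reads may not be separable from those of LOC115487209, which it overlaps. Its change from GV to MII in Null was -1.48 (adjusted p = 0.168), and -3.39 (adjusted p = 0.00800) without MII Null replicate 4. These were among 11 members without overlap at the GV stage, 5 higher and 6 lower in Null, where 6.79% and 5.95% of all genes were. In eggs 1 member was higher without overlap (Fbxl8) and 1 lower, where 2.93% and 3.13% of all genes were.

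**Figure D5:**
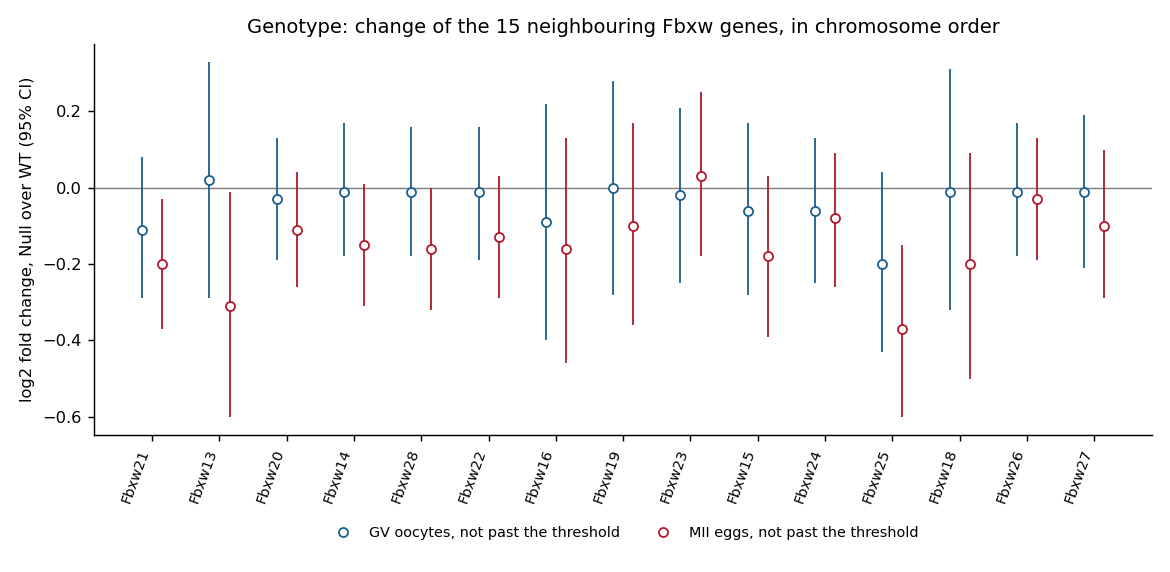
Log2 fold change of Null over WT for the 15 Fbxw genes of chromosome 9 in GV oocytes (blue) and MII eggs (red), in chromosome order. Bars are 95% intervals, and open points did not pass an adjusted p of 0.05. Fbxw25 lies lowest at both stages (-0.20 and -0.37), and most intervals cross 0.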

How the data were processed

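Poly(A) RNA of 13 pools of 25 oocytes was read on 65-base single-end runs, per the labels' protocols. The authors deposited raw counts per gene of Ensembl release 93, per the file headers, with no normalization. The submitters' processing notes name STAR 2.5.3a, bedtools 2.26.0 and the build GRCm38.p6 (mm10). How reads were assigned to genes, with which tool, strand option and treatment of multi-mapping reads, is not stated in any source used here.

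Symbols were matched for 54079 IDs, and 153 had none. Coordinates are those of the RefSeq table of GRCm38.p6, and promoter windows are from RefSeq (aligned with Biopython 1.88). All 13 libraries entered 1 edgeR 4.0.16 model (R 4.3.3) with 4 groups, TMM factors and filterByExpr, which kept 20143 genes. Two-sided glmQLFTest values were adjusted over all tested genes (Benjamini-Hochberg, threshold 0.05). The procedure was tested on simulated data. Intervals are 95% intervals of the fit, and detection limits (3 counts) cover counting error alone.

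The members and lists were chosen with earlier results of these data known. Same-numbered libraries were not treated as pairs. Named were the chromosome 9 group, the 10 members of highest CPM (a ranking per kilobase was planned but no transcript lengths were used here), up to 12 called members of at least 1 CPM per direction and contrast by p, the 3 smallest p per genotype comparison, Skp1a, Cul1, Rbx1 and 6 further SCF genes by p, and F-box genes under other symbols. The other members named are there so that each called member is accounted for. Alternatives were DESeq2 1.42.0, other scalings and filters, a minimum fold, fits of the compared groups alone, a replicate term and leaving out libraries. Library totals, and leaving out 2 GV Null libraries, were added after seeing the data.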

Additional observations from a re-analysis of the deposited data

Results flagged for a closer look

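In the group of 4 MII Null libraries, 6 of 70 tested members had 1 library far from the other 3 by Dixon's test. Chance gives this in about 1 in 20 groups, a rate that need not hold near the detection limit, as for Fbxl12os. The share over all tested genes was not computed, so the 6 cannot be set against other genes. In 5 of the 6 that library was MII Null replicate 4, which lay between the stages on the leading principal component of all genes. It had 2.55 CPM of Fbxl21 against 1.05 to 1.30 CPM in the others, and 15 CPM of Fbxo47 against 10 to 10.6 CPM. Fbxw11 was at 52.0 CPM there against 45.4 to 45.6 CPM, Fbxo32 at 0.528 CPM against 0.184 to 0.210 CPM, and Fbxl12os at 0.280 CPM against 0 to 0.0350 CPM. In the sixth, Fbxo42, MII Null replicate 1 was low at 161 CPM against 181 to 185 CPM.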

How the results depend on the processing

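Genotype calls numbered 0 at both stages and for the difference in every alternative run but the fit without a filter on low counts, which gave 1 in MII eggs and 1 for the difference, both Fbxo32. Leaving out each library in turn gave 0 genotype calls, 30 to 35 calls for maturation in WT and 35 to 44 in Null. A minimum of 1.5-fold cut the maturation calls from 36 to 8 in WT and from 40 to 12 in Null, where 13.4% and 16.0% of all genes passed. Without GV Null replicates 2 and 3, which leaves 1 GV Null library assumed to vary like the other groups, 28 Null calls were made (6 rose, 22 fell) and 26.1% of all genes were called. Same-numbered libraries deviated with correlations of -0.22 to 0.14 (18 pairs). In groups of 3 or 4 libraries such values cannot show whether same-numbered libraries were prepared together. With a replicate block the calls were 0 and 0 for genotype, 0 for the difference, 36 for maturation in WT and 44 in Null. Signs of changes that did not pass turned for Fbxo25 in WT (-0.01 with a filter of 5 CPM, -0.11 with library totals), Fbxo34 (-0.01 and -0.12 in WT, -0.03 with totals in Null), Fbxw5 in Null (-0.04 with totals) and Fbxo28. Fbxo28 was -0.08 (5 CPM), -0.02 (groups compared alone), -0.18 (totals) and -0.01 to 0.05 with 1 library left out (-0.01 without MII WT replicate 3) in WT, and -0.03 (5 CPM), -0.13 (totals) and -0.13 (without GV Null replicates 2 and 3) in Null. Of 486 and 554 refits of named members for maturation in WT and Null, 428 and 488 kept direction and call. The summed level of the chromosome 9 group was 7136 CPM in GV WT and 7066 CPM in GV Null with library totals. The cause of these shifts was not tested.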
